A study of Mus musculus with 10 samples.

Results

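The T-box family is described here by the H3K4me3 state of 8 of its promoters, those of Tbx1, Tbx2, Tbx3, Tbx4, Tbx6, Tbx20, Eomes and T (the brachyury gene), out of 21755 protein-coding genes. The rule that finds their peaks uses no measured value, but the 8 genes were picked from the family with earlier results of these data known. H3K4me3, trimethylated lysine 4 of histone H3, was mapped with CUT&Tag, which tethers the Tn5 transposase to an antibody on the mark so that nearby DNA is cut and tagged. The cells were naive extra-embryonic endoderm (nEnd), a stem cell model of the blastocyst-stage primitive endoderm (PrE), of an OCT4-mCherry reporter line without treatment. They were sorted on mCherry and on surface PDGFRA into Oct4+ nEnd (4 libraries), double positive or DP nEnd (3 libraries) and Pdgfra+ nEnd (3 libraries). All 3 populations carry the reporter, share the line and come from cultures that are kept on feeder fibroblasts, so nothing here speaks for another line.

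T-box proteins are transcription factors that share one DNA-binding domain, the T-box, and recognise related half-sites. Several act where the early embryo makes mesoderm and endoderm: T in the primitive streak and notochord, Eomes in the trophectoderm, visceral endoderm and streak, and Tbx6 in the paraxial mesoderm. Tbx3 is known for its part in naive pluripotency and in extra-embryonic endoderm, Tbx2 is its close paralog and a repressor, Tbx1 acts in the pharyngeal region, Tbx4 in the hindlimb and allantois, and Tbx20 in the heart. H3K4me3 sits at promoters of transcribed genes and also at promoters of silent developmental genes that carry H3K27me3, so a peak by itself is not a measure of transcription.

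A gene was counted as marked in a library if any of the library's peaks reached the stretch from 1000 bp before to 100 bp after one of its transcription start sites (TSS) in the GRCm38 annotation. Coverage had not been scaled between libraries, so a peak was ranked only within its own library, as the percentile of its total signal (coverage summed over the peak), which rises with the width of a peak as well as with its height. Read depth is unknown. The lists held from 3477 to 10545 peaks and marked from 18.5% to 51.2% of protein-coding genes. Oct4+ nEnd replicate 3 (3477 peaks) and replicate 4 (4887 peaks) were the shortest, and the deposited consensus of Oct4+ nEnd rests on replicates 1, 2 and 4. Of 6 epiblast genes, Pou5f1, Nanog, Sox2 and Esrrb were marked in every Oct4+ and DP nEnd library and in no Pdgfra+ nEnd library. Their peaks stood at the 96.8 to 99.99 percentiles in Oct4+ nEnd and at the 11.5 to 72.4 percentiles in DP nEnd. Klf2 and Tfcp2l1 were marked in every Oct4+ nEnd library, in 3 and 1 DP nEnd libraries and in Pdgfra+ nEnd replicate 1. That library, the one with the most peaks, marked 2 of the 6 epiblast genes where the other Pdgfra+ nEnd libraries marked 0, and it is also the only Pdgfra+ nEnd library in which Eomes, Tbx20 or Tbx6 was marked. The part of this in those calls was not tested. All 6 PrE genes were marked in every DP and Pdgfra+ nEnd library. In Oct4+ nEnd, Foxa2 and Dab2 were marked in 0 libraries, Gata4 and Pdgfra in 1, Sox17 in 2 and Gata6 in 3 of 4, so by presence the PrE promoters did not all separate Oct4+ nEnd. By percentile they did. Where marked in Oct4+ nEnd, Gata4, Pdgfra, Sox17 and Gata6 stood at 12.2 to 41.0, against 92.3 to 99.97 in DP and Pdgfra+ nEnd. Of 15 fibroblast genes, 13 were marked in none of the 10 libraries, Col1a1, Col1a2, Col3a1 and Thy1 among them. The exceptions were Twist1 (5 libraries) and Fbln1 (6 libraries).

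RefSeq promoter sequences of GRCm38.p6 were matched for 6 of the 8 genes (Tbx1, Tbx4, Tbx6, Tbx20, Eomes and T). The 250 bases before the RefSeq start are shown for Eomes and Tbx20, which had a peak in some libraries, and for T and Tbx1, which had none. Eomes is at chr9:118477939-118478188 (plus strand), Tbx20 at chr9:24774304-24774553 (minus strand), T at chr17:8434173-8434422 (plus strand) and Tbx1 at chr16:18588900-18589149 (minus strand, the downstream of its 2 RefSeq starts). Each is written 5′ to 3′ with CpG dinucleotides in capitals, since CpG-rich promoters are those that usually carry H3K4me3.
Eomes (marked in 6 libraries): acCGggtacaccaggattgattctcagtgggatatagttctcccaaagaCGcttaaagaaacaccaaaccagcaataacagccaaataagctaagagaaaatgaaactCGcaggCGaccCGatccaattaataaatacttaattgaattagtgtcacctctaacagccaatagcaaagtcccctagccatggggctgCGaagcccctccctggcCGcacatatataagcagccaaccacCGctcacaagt
Tbx20 (marked in 3 libraries): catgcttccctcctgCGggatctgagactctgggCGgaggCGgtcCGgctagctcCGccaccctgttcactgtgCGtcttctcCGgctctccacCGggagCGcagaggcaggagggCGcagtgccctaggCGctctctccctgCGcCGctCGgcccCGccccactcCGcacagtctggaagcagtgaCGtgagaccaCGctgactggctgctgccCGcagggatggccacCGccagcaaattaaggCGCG
T (marked in 0 libraries): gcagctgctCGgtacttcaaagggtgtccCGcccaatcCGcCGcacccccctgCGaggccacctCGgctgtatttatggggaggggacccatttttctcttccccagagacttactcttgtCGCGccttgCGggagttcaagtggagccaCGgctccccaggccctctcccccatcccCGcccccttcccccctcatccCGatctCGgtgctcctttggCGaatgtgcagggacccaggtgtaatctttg
Tbx1 (marked in 0 libraries): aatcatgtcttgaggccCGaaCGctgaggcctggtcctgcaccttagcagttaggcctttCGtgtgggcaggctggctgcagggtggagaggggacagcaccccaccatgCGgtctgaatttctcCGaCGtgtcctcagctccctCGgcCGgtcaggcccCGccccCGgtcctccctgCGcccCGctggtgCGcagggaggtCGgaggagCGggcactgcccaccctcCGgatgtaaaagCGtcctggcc

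Over the whole 300-base entries, which run 50 bases past the start, Tbx20 held 26 CpGs, Tbx1 26 and 16 at its 2 starts, T 17, Eomes 10, Tbx4 8 and Tbx6 7. The median was 7 over all 32851 RefSeq promoters, 25 over promoters of genes marked in 10 of 10 libraries and 4 over those of genes marked in 0 of 10. Among the 6 members with a matched sequence, the count of CpGs did not separate marked from unmarked. Tbx2 and Tbx3 had no match, although Tbx3 was marked in every library. The call at Tbx6 came from a peak over the promoters of its neighbours. Tbx1 had as many as Tbx20 and T had more than Eomes, yet neither Tbx1 nor T was marked anywhere, and Eomes was marked in 6 libraries at a GC content of 47.3%. The T-box half-site letters AGGTGTGA, or TCACACCT on the other strand, were in none of these entries and in 1.28% of all promoters.

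One of the 8 promoters was marked in all 10 libraries, 3 in none and 4 in some. The promoter of Tbx3 was marked everywhere. The promoters of Eomes, Tbx2, Tbx20 and Tbx6 were marked in 6, 5, 3 and 1 libraries, and those of Tbx1, Tbx4 and T in 0. Among all protein-coding genes 16.6% were marked in all 10 libraries, 46.5% in none and 36.8% in some, so the members spread over these classes much as genes at large. The Oct4+ nEnd libraries marked 2, 2, 1 and 1 of the 8 genes (1.5 ± 0.577, SD, n = 4), the DP nEnd libraries 4, 4 and 3 (3.67 ± 0.577, SD, n = 3) and the Pdgfra+ nEnd libraries 5, 1 and 2 (2.67 ± 2.08, SD, n = 3). Every DP nEnd library marked more members than any Oct4+ nEnd library, while Pdgfra+ nEnd spanned the whole range. Over all protein-coding genes the same libraries marked 43.8%, 39.8%, 18.5% and 25.4% in Oct4+ nEnd (mean 31.9%), 41.8%, 45.2% and 39.4% in DP nEnd (mean 42.1%) and 51.2%, 33.8% and 40.0% in Pdgfra+ nEnd (mean 41.7%), so Oct4+ nEnd replicates 1 and 2 lay within the DP nEnd range by that measure.

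**Figure D1:**
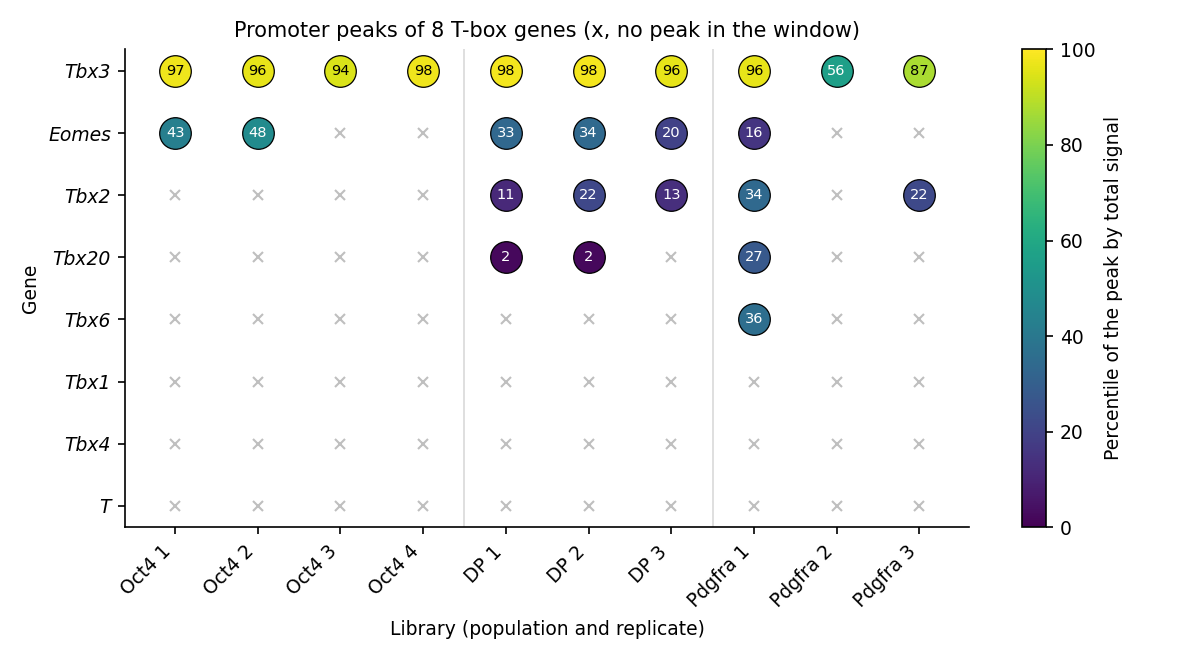
Promoter peaks of the 8 T-box genes (rows) in the 10 libraries (columns). A filled circle is a marked promoter with the percentile of its peak by total signal within that library printed inside, and a cross is a promoter with no peak. Tbx3 is filled in all 10 columns, Tbx1, Tbx4 and T in none, and Tbx2 in all 3 DP nEnd columns and none of the 4 Oct4+ nEnd columns.

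The number of members marked also moved with the number of peaks in a library. The 3 libraries with the fewest peaks (3477, 4887 and 6510) marked Tbx3 alone, and the library with the most (10545, Pdgfra+ nEnd replicate 1) marked 5 members and 51.2% of all genes. Between 7575 and 9144 peaks, Oct4+ nEnd replicates 1 and 2 and Pdgfra+ nEnd replicate 3 marked 2 members each and the 3 DP nEnd libraries 3 or 4. With the 3477 peaks of highest total signal taken from each library, only Tbx3 was marked in any library, so the comparisons of presence for the members that varied rest on peaks outside that top set. How far the length of the lists set them was not tested.

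**Figure D2:**
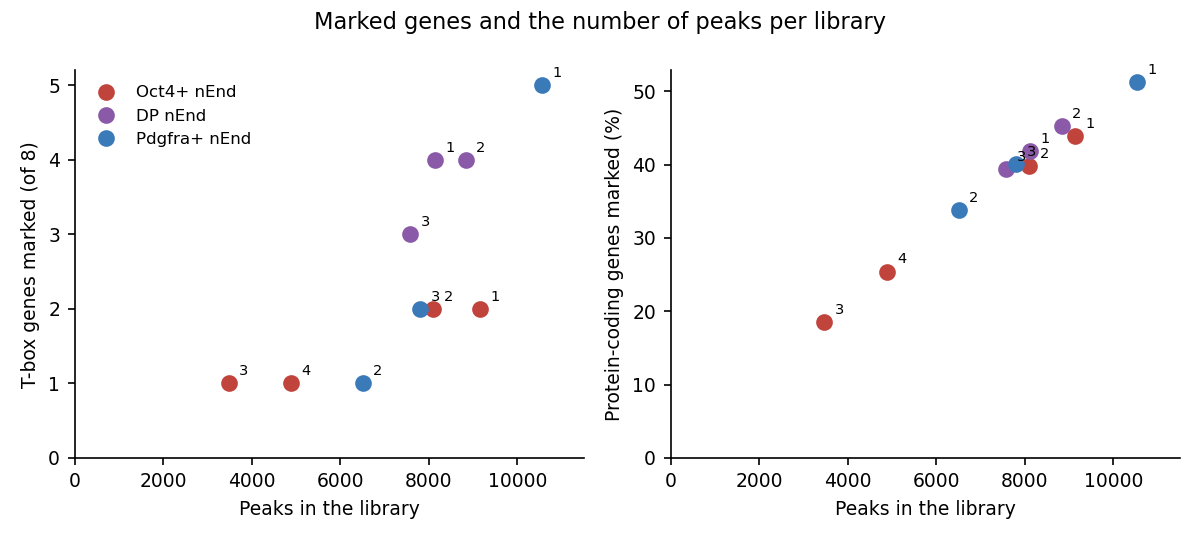
T-box genes marked (left, of 8) and protein-coding genes marked (right, percent) against the number of peaks per library, with replicate numbers beside the points. The 3 shortest lists marked 1 member each, and at 7575 to 9144 peaks the DP nEnd libraries marked 3 or 4 members and Oct4+ nEnd replicates 1 and 2 and Pdgfra+ nEnd replicate 3 marked 2.

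Tbx3 lies on chromosome 5 on the plus strand, from 119670669 to 119684724 (14056 bp), and was the one member with a broad peak. In Oct4+ nEnd replicates 1 to 4 the promoter peak was 10859, 8819, 6458 and 18777 bp wide. It was 11678, 11703 and 8953 bp wide in DP nEnd and 8611, 4716 and 6568 bp wide in Pdgfra+ nEnd. Within each library the peak was wider than 93.8% to 99.7% of all peaks, Pdgfra+ nEnd included (97.4%, 98.2% and 98.0%). Every one of these peaks also covered a promoter of the antisense gene Tbx3os1, and CUT&Tag cannot assign the mark to either strand.

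The widths in Oct4+ nEnd (11228 ± 5344 bp, SD, n = 4) and DP nEnd (10778 ± 1581 bp, SD, n = 3) overlapped, with a difference of 450 bp (exact permutation test, p = 1.0, adjusted p = 1.0). Without Oct4+ nEnd replicate 4 the difference was −2066 bp. With the widths of all promoter peaks of the gene summed, which adds the second peaks described below, it was 4256 bp (exact permutation test, p = 0.114, adjusted p = 0.581). Pdgfra+ nEnd had the narrowest peaks on average (6632 ± 1948 bp, SD, n = 3), 4597 bp narrower than Oct4+ nEnd (exact permutation test, p = 0.229, adjusted p = 0.689). That difference was 2080 bp without Oct4+ nEnd replicate 4, and 8402 bp with summed widths (exact permutation test, p = 0.0571, adjusted p = 0.561). The 3 widths in DP nEnd lay above the 3 in Pdgfra+ nEnd without overlap, by 4146 bp on average (exact permutation test, p = 0.10, the smallest that 3 libraries against 3 allow, adjusted p = 0.590). That order held for 15.2% of the 7174 genes marked in all 6 libraries, and 93.9% of them were wider in DP nEnd on average, with a median difference of 903 bp. Widths of promoter peaks passed the adjusted test at 0 genes in each pair of populations (exact permutation test, 258, 190 and 0 genes at an unadjusted p under 0.05 for Oct4+ against DP, Oct4+ against Pdgfra+ and DP against Pdgfra+ nEnd).

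By total signal the Tbx3 peak was at the 97.3, 96.5, 94.2 and 97.6 percentiles in Oct4+ nEnd, at the 98.3, 98.3 and 96.4 percentiles in DP nEnd and at the 96.4, 55.9 and 87.3 percentiles in Pdgfra+ nEnd. Pdgfra+ nEnd replicate 2, whose peaks were the narrowest of all libraries (median 2205 bp), stood well below the other 9 libraries. The mean in Pdgfra+ nEnd (79.9 ± 21.3, SD, n = 3) was 16.6 points below that in Oct4+ nEnd (exact permutation test, p = 0.0571, adjusted p = 0.301) and 17.8 points below that in DP nEnd (exact permutation test, p = 0.20, adjusted p = 1.0). Without Pdgfra+ nEnd replicate 2 these differences were 4.56 and 5.79 points, and without replicate 1 they were 24.8 and 26.1 points. Oct4+ and DP nEnd differed by −1.23 points (exact permutation test, p = 0.314, adjusted p = 0.525). With 1 library left out this difference ranged from −1.88 (without DP nEnd replicate 3) to −0.511 points (without Oct4+ nEnd replicate 3). None of these differences passed, and percentiles passed the adjusted test at 0 genes in every pair (exact permutation test, 337, 364 and 0 genes at an unadjusted p under 0.05, pairs in the same order). The last 0 was fixed by the design, as 3 libraries against 3 allow no p under 0.10 in that test.

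The Tbx3 peak ranked high by width and, except in Pdgfra+ nEnd replicate 2 (55.9 percentile), by total signal. It ranked lower by height in every library. Ranked by the highest coverage within the peak, Tbx3 was at the 81.8, 54.1, 40.3 and 53.2 percentiles in Oct4+ nEnd, at 43.5, 55.6 and 43.5 in DP nEnd and at 51.7, 1.08 and 29.5 in Pdgfra+ nEnd. The same peaks that led by total signal were therefore of middle rank by height in most libraries, and the mean in Oct4+ nEnd was then 9.79 points above that in DP nEnd (exact permutation test, p = 0.571, adjusted p = 0.774), opposite in sign to the order by total signal.

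The populations differed in whether the 3′ part of Tbx3 lay in a peak. A second peak over the 3′ part of the gene was called in Oct4+ nEnd replicates 1, 2 and 3, from 119679296 to 119684425 (5130 bp), from 119679255 to 119684639 (5385 bp) and from 119679313 to 119684018 (4706 bp). In Oct4+ nEnd replicate 4 a single peak of 18777 bp ran from 119668793 to 119687569 and covered the same stretch. These second peaks had a total signal of 104087, 70848 and 29149 and stood at the 74.2, 64.2 and 57.0 percentiles. They contain exon 6 and all or part of exon 7, the last exons of the coding transcript that starts at 119670669 (exon 7 ends at 119684561, inside the peak of replicate 2 and beyond those of replicates 1 and 3), and the annotated start of a non-coding Tbx3 transcript at 119680249. In Oct4+ nEnd replicates 1 to 3 the promoter peak itself stopped at 119677687, 119676673 and 119676174, within the range of DP nEnd. In the 3 DP nEnd libraries it stopped at 119678922, 119678402 and 119675645 and in Pdgfra+ nEnd at 119676534, 119674334 and 119675545, and all 6 had 0 bp in peaks between 119679255 and 119684639. That interval was taken from the Oct4+ nEnd peaks, so this is a description. The lowest total signal in a DP nEnd list (50231 to 53198) was above the lowest in an Oct4+ nEnd list (15732 to 29610), and of the 3 second peaks those of replicates 1 and 2 lay above the DP nEnd limits and that of replicate 3 below them. Raw signal is not scaled between libraries, and the part of these limits in the difference was not tested. The lowest total signal in the Pdgfra+ nEnd lists (25245 to 27191) was within the range of the Oct4+ nEnd lists.

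**Figure D3:**
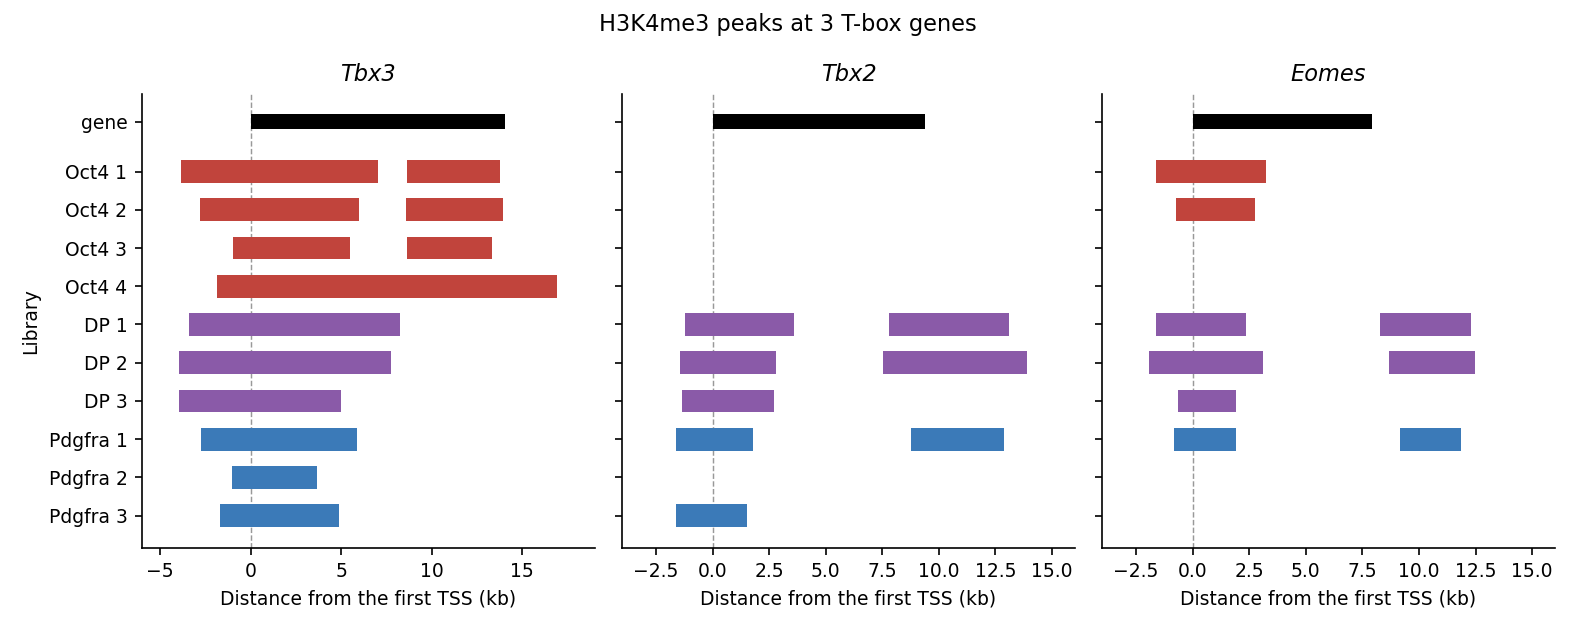
H3K4me3 peaks (coloured bars) at Tbx3, Tbx2 and Eomes in each library, placed by distance from the first TSS of the gene in kb, with the gene in black. At Tbx3 the 4 Oct4+ nEnd libraries have a peak over the last part of the gene, where the 6 other libraries have 0 bp in peaks.

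Measured over the whole gene instead of the promoter, a measure added after the peaks had been seen, peaks covered 12149, 11390, 10212 and 14056 of the 14056 bp of Tbx3 in Oct4+ nEnd (11952 ± 1613 bp, SD, n = 4). They covered 8254, 7734 and 4977 bp in DP nEnd (6988 ± 1761 bp, SD, n = 3) and 5866, 3666 and 4877 bp in Pdgfra+ nEnd (4803 ± 1102 bp, SD, n = 3). Every Oct4+ nEnd library lay above every library of the other populations. The measure takes in the 3′ stretch described above, so this separation and its tests are not a second result apart from that description. The difference to DP nEnd was 4963 bp (exact permutation test, p = 0.0286, the smallest that 4 libraries against 3 allow, adjusted p = 0.495) and that to Pdgfra+ nEnd 7149 bp (exact permutation test, p = 0.0286, adjusted p = 0.427), so neither passed after adjustment over the genes tested. Groups without overlap, higher in Oct4+ nEnd, were found at 2.11% of 3882 genes against DP nEnd and at 11.5% of 3616 genes against Pdgfra+ nEnd. In the opposite direction the shares were 7.86%, higher in DP nEnd, and 1.08%, higher in Pdgfra+ nEnd. By the adjusted exact permutation test 0 genes passed in either pair, with 224 and 242 at an unadjusted p under 0.05. DP and Pdgfra+ nEnd overlapped, with a difference of 2185 bp (exact permutation test, p = 0.20, adjusted p = 0.673).

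**Figure D4:**
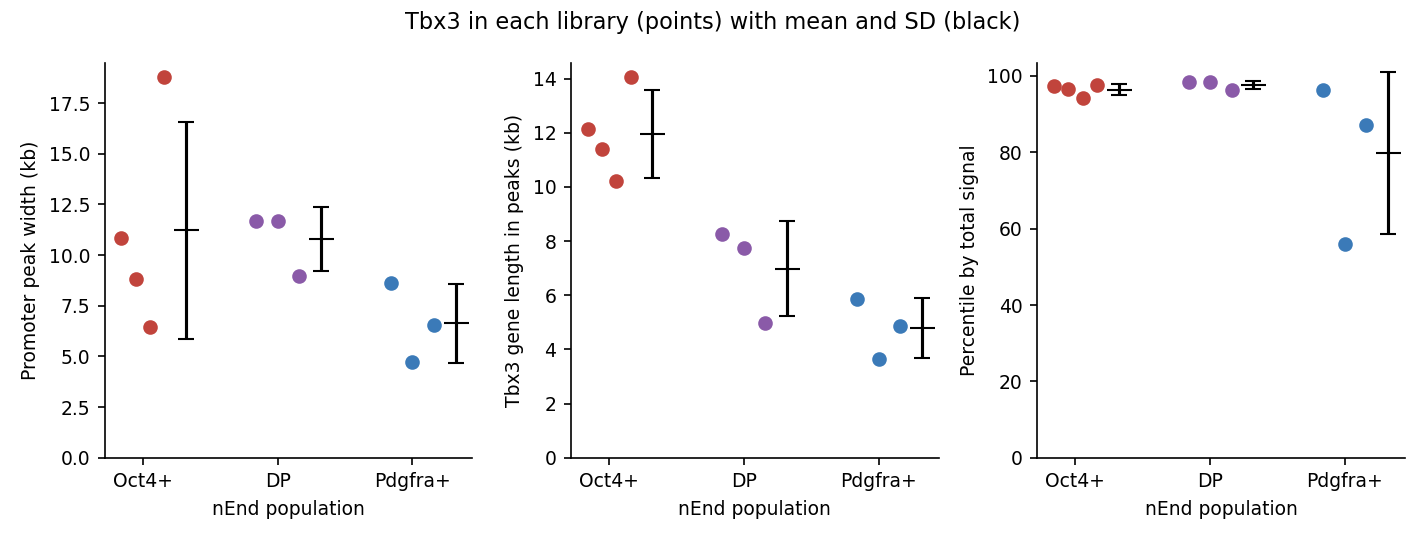
Tbx3 in each library (points, by population) with the mean and SD in black: width of the promoter peak in kb (left), length of the gene that lies in peaks in kb (middle) and percentile of the promoter peak by total signal (right). In the middle panel the 4 Oct4+ nEnd libraries lie at 10212 bp or more and the other 6 at 8254 bp or less, while the widths of Oct4+ and DP nEnd overlap on the left.

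In the consensus lists the Tbx3 peak was 20741 bp wide in Oct4+ nEnd (119666829 to 119687569), 12230 bp in DP nEnd (119666693 to 119678922) and 8611 bp in Pdgfra+ nEnd (119667924 to 119676534). Only 0.420%, 1.79% and 3.55% of the consensus peaks of those populations were wider. A consensus peak joins the overlapping peaks of its libraries and has no replicates, and the width in Oct4+ nEnd is set at its right end by replicate 4.

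Tbx2, on chromosome 11 from 85832551 to 85841948 on the plus strand, was the member whose presence separated a pair of populations. A promoter peak was called in 3 of 3 DP nEnd libraries, in 2 of 3 Pdgfra+ nEnd libraries and in 0 of 4 Oct4+ nEnd libraries. The peaks measured 4816, 4216 and 4095 bp in DP nEnd (4376 ± 386 bp, SD, n = 3) and 3374 and 3131 bp in Pdgfra+ nEnd replicates 1 and 3, and each also covered the promoter of the non-coding gene 2610027K06Rik. They were weak peaks within their libraries, at the 11.4, 21.8 and 13.3 percentiles by total signal in DP nEnd and the 33.8 and 22.2 percentiles in Pdgfra+ nEnd. In Oct4+ nEnd the nearest peak lay 366585 to 517994 bp from the promoter window.

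For Oct4+ against DP nEnd, Fisher's exact test of Tbx2 gave p = 0.0286, the smallest that the design allows, and an adjusted p of 0.649. Of the 10603 genes marked in at least 1 library of that pair, 3.99% were marked in every DP nEnd and no Oct4+ nEnd library and 0.415% the other way. Of the 8 members, 4 (Tbx2, Tbx3, Tbx20 and Eomes) were among those 10603 genes, and of these Tbx2 alone was in the first class and none in the second. Against Pdgfra+ nEnd the test of Tbx2 gave p = 0.143 (Fisher's exact test, adjusted p = 1.0). The other pairs were separated in this way by 0 members. Over all genes the share was 0.672% for Oct4+ without Pdgfra+ nEnd and 2.69% for the reverse (of 11614 genes), and 0.214% for DP without Pdgfra+ nEnd and 0.00891% for the reverse (of 11222 genes). Without Pdgfra+ nEnd replicate 2, Tbx2 was marked in every remaining Pdgfra+ nEnd library and no Oct4+ nEnd library, and the share of all genes in that class was then not computed. Fisher's exact test passed after adjustment at 0 genes in all 3 pairs, with 467, 390 and 0 genes at an unadjusted p under 0.05 for Oct4+ against DP, Oct4+ against Pdgfra+ and DP against Pdgfra+ nEnd. The 0 for DP against Pdgfra+ nEnd was fixed by the design, as 3 libraries against 3 allow no p under 0.10 in that test.

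A second peak began inside Tbx2 and ran past its 3′ end in DP nEnd replicates 1 and 2 and in Pdgfra+ nEnd replicate 1. It was 5303, 6381 and 4073 bp wide, and it reached 13081, 13909 and 12857 bp from the TSS. It covered no annotated promoter window and stood at the 5.91, 8.30 and 24.0 percentiles. It was not called in DP nEnd replicate 3 or Pdgfra+ nEnd replicate 3, which marked the promoter.

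Eomes, on chromosome 9 from 118478212 to 118486132 on the plus strand, was marked in 3 of 3 DP nEnd libraries, 2 of 4 Oct4+ nEnd libraries and 1 of 3 Pdgfra+ nEnd libraries. The peaks were 3990, 5034 and 2583 bp wide in DP nEnd (3869 ± 1230 bp, SD, n = 3), 4863 and 3512 bp in Oct4+ nEnd replicates 1 and 2 and 2744 bp in Pdgfra+ nEnd replicate 1. Their percentiles were 33.2, 33.8 and 19.8 in DP nEnd, 42.7 and 47.9 in Oct4+ nEnd and 15.6 in Pdgfra+ nEnd. The Oct4+ nEnd libraries that had the peak, replicates 1 and 2, also marked the most PrE genes of that population (4 and 2 of 6, against 1 and 0 in replicates 3 and 4), and the part of this in the result was not tested. Presence did not pass Fisher's exact test between DP and Oct4+ nEnd (p = 0.429, adjusted p = 1.0), between DP and Pdgfra+ nEnd (p = 0.40, adjusted p = 1.0) or between Oct4+ and Pdgfra+ nEnd (p = 1.0, adjusted p = 1.0). With 4 and 3 libraries these tests cannot tell a missing difference from one they have no power to see. The libraries without the peak held 3477, 4887, 6510 and 7800 peaks, against 7575 or more in those with it. Without Pdgfra+ nEnd replicate 1, the longest list, Eomes was marked in all DP nEnd libraries and in neither remaining Pdgfra+ nEnd library. The share of all genes separated in this way without that library was not computed.

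Downstream of Eomes a further peak covered the promoter of the non-coding gene Gm33460 in DP nEnd replicates 1 and 2 and in Pdgfra+ nEnd replicate 1. It began 8256, 8668 and 9156 bp from the first TSS of Eomes, beyond the end of the gene, and stood at the 5.81, 6.38 and 23.9 percentiles. These are the same 3 libraries in which the 3′ peak of Tbx2 was called, and they hold 8128, 8836 and 10545 peaks. Neither Oct4+ nEnd library with an Eomes peak had it.

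Tbx20, on chromosome 9 from 24718138 to 24774303 on the minus strand, was marked in DP nEnd replicates 1 and 2, in Pdgfra+ nEnd replicate 1 and in no Oct4+ nEnd library. The peaks were narrow, at 2440, 2821 and 2271 bp. In DP nEnd they were near the bottom of the lists, at the 2.04 and 2.14 percentiles by total signal, and in Pdgfra+ nEnd replicate 1 the peak was at the 27.5 percentile. A peak in DP nEnd replicate 2 and that in Pdgfra+ nEnd replicate 1 also covered the promoter of the long non-coding gene Gm29824. Fisher's exact test gave p = 0.143 for Oct4+ against DP nEnd, p = 0.429 for Oct4+ against Pdgfra+ nEnd and p = 1.0 for DP against Pdgfra+ nEnd (adjusted p = 1.0 in each pair). Without DP nEnd replicate 3, Tbx20 joined Tbx2 as marked in every DP nEnd and no Oct4+ nEnd library. How many of all genes joined that class in the same step was not computed.

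The only peak counted at Tbx6 lay over the promoters of its neighbours. Tbx6, on chromosome 7 from 126781483 to 126785560 on the plus strand, was counted as marked in Pdgfra+ nEnd replicate 1 only, through a peak of 5154 bp from 126775597 to 126780750 that covers the promoters of Ypel3 and Gm9967. This peak ended at −733 bp relative to the Tbx6 TSS and covered 0 bp of the gene. Peaks at the Ypel3 promoter were also called in Oct4+ nEnd replicates 1 and 2, in the 3 DP nEnd libraries and in Pdgfra+ nEnd replicate 3, and they ended 585 to 2222 bp short of the Tbx6 window. Under the rule that 50% of the window lie in a peak, Tbx6 was marked in no library, and the other 7 genes kept their counts in all 3 populations. With a window of 2500 bp both ways it was marked in DP nEnd replicate 3 as well. The Pdgfra+ nEnd consensus has the same peak, from 126775597 to 126780750.

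Tbx1, Tbx4 and T had no promoter peak in any of the 10 libraries, and a window widened to 2500 bp in both directions found none either. T, on chromosome 17 from 8434423 to 8442496, had 118693 to 148581 bp between its promoter windows and the nearest peak. For Tbx1, on chromosome 16 from 18580979 to 18590671, the distance was 33324 to 82926 bp. For Tbx4, which follows Tbx2 on chromosome 11 from 85886422 to 85916097, it was 38962 to 459689 bp, and it was larger than that of T in the 4 Oct4+ nEnd libraries and in Pdgfra+ nEnd replicate 2. In the 5 libraries in which Tbx2 was marked, the nearest peak to Tbx4 was the Tbx2 promoter peak or the peak at the 3′ end of Tbx2. In each library 0 bp of these 3 genes lay in a peak. A gene without a listed peak may still carry the mark below the calling threshold.

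In the consensus lists Tbx3 was present in all 3 populations, Eomes in Oct4+ nEnd (4863 bp) and DP nEnd (5034 bp), Tbx2 in DP nEnd (5043 bp) and Pdgfra+ nEnd (3385 bp), Tbx20 in DP nEnd (2905 bp) and Tbx6 in Pdgfra+ nEnd (5154 bp). The Eomes peak of Pdgfra+ nEnd replicate 1 and the Tbx20 peak of the same library were not part of a consensus peak, since no second Pdgfra+ nEnd library had them.

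Of 9 other T-box genes, 6 (66.7%) were marked in none of the 10 libraries (Tbx5, Tbx10, Tbx19, Tbx21, Tbx22 and Tbr1), against 46.5% of all protein-coding genes, a difference that was not tested. Mga, whose protein pairs a T-box with a MAX-binding domain, was marked in 3 Oct4+, 2 DP and 2 Pdgfra+ nEnd libraries. Tbx18, a gene of the epicardium and somites, was marked in 1 Oct4+, 2 DP and 1 Pdgfra+ nEnd library. Tbx15 was marked in 1 DP and 1 Pdgfra+ nEnd library. None of the 9 was marked in every library of one population and in none of another.

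Genes that act beside T, Eomes and Tbx6 in the streak and early mesoderm were marked in none of the libraries in 8 of 16 cases (50%, against 46.5% of all protein-coding genes), Mixl1, Mesp1, Mesp2, Msgn1 and Gsc among them. Snai1 and Dll1 were marked in 3 of 3 DP and 3 of 3 Pdgfra+ nEnd libraries, at the 62.7 to 84.8 percentiles. In Oct4+ nEnd each was marked in 1 of 4 libraries, at the 2.20 and 9.93 percentiles. Hes7 was marked in 2 of 4 Oct4+, 3 of 3 DP and 2 of 3 Pdgfra+ nEnd libraries. Wnt3a (2 Oct4+ nEnd libraries), Fgf8 (1 Pdgfra+) and Lef1 (2 Oct4+ and 1 Pdgfra+) were marked in fewer. Nodal, the streak-inducing ligand, was marked in 4 of 4 Oct4+ nEnd libraries (95.7 to 99.1 percentile by total signal), in 3 of 3 DP nEnd libraries (30.4 to 37.9) and in 0 of 3 Pdgfra+ nEnd libraries. Lhx1, a homeobox gene of the anterior visceral endoderm and streak, was marked in 3 of 3 DP nEnd libraries, 1 of 3 Pdgfra+ nEnd libraries and 0 of 4 Oct4+ nEnd libraries. Lhx1 shares with Tbx2 the class of genes marked in all DP and no Oct4+ nEnd libraries, at the 7.50 to 14.9 percentiles in DP nEnd. Of 9 genes of the heart and pharyngeal field, in which Tbx1 and Tbx20 act, 5 were marked in none (55.6%, against the same 46.5%), Nkx2-5, Isl1, Hand1 and Hand2 among them. Fgf10 was marked in all 6 DP and Pdgfra+ nEnd libraries and in no Oct4+ nEnd library.

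Other genes had the same pattern over the libraries as the members that varied. Tbx2 shared its status in 10 of 10 libraries with 128 protein-coding genes, and the nearest by percentile were Zfp629, Cdc42ep2 and Gcnt4. Eomes shared its status with 86 genes, nearest Mecom, Spata13 and Ppfibp2. Tbx20 shared it with 70, nearest Rgma, Mad2l1bp and Nr2f1. Tbx6 shared it with 1000, nearest 2700062C07Rik, Ankrd34a and Emilin1, all marked in Pdgfra+ nEnd replicate 1 alone. The mean absolute difference in percentile to the nearest gene was 1.08 for Tbx2, 2.01 for Eomes, 0.325 for Tbx20 and 0.0654 for Tbx6, over 10 libraries with unmarked libraries set to 0.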

How the data were processed

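H3K4me3 CUT&Tag peak lists of 4 Oct4+, 3 DP and 3 Pdgfra+ nEnd libraries were used. According to the methods, the authors used BEDtools for coverage, SEACR with IgG as control and the stringent setting for peaks, and DiffBind for consensus peaks. The labels also name Bowtie2 and SAMtools 1.12, with genome mm10. The deposited signal of a peak is its summed and its highest coverage, unscaled between libraries. Consensus lists were used for positions.

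Peaks were joined to TSS of 21755 protein-coding genes (GENCODE M21, chromosomes 1 to 19 and X). The build was checked: 90.6% to 97.2% of peaks contained a TSS, and 13.2% to 23.8% after a shift of 10000 bp. The peak with the highest total signal represented a gene. Presence was compared by Fisher's exact test, width and percentile by exact two-sided permutation of library means, both with Benjamini-Hochberg adjustment over all genes tested. The labels do not say whether replicates are separate cultures; the paper describes its CUT&Tag tracks as made from 3 biological replicates, while Oct4+ nEnd has 4 libraries here. The p-values measure the spread between libraries. The code was tested on simulated data. Members and lists were chosen with earlier results of these data known. All 8 members were named, with the 3 genes most alike in status and genes of fixed lists, all that were fully separated among them. Alternatives were wider windows, 50% cover, coding TSS, equal peak numbers, other rank and width measures, joined peaks, a replicate block and leaving out each library. Python 3.11.15, numpy 2.4.6, pandas 2.3.3 and scipy 1.17.1 were used. Other histone marks and RNA-seq were not analysed here.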

Additional observations from a re-analysis of the deposited data

How the results depend on the processing

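Of 333 recomputed values, 324 neither reversed nor crossed a threshold, and counts and means among them stayed within 1.5 times or 1 SD. A tested difference was counted there whenever its sign did not reverse and no test was passed. No tested difference had passed before, so this total says nothing on how far their sizes moved. Differences in presence that fell to 0 are counted there, as no test was passed before or after. With equal numbers of peaks the mean number of members marked per DP nEnd library was 1 instead of 3.67, and 0 members were marked in every DP and no Oct4+ nEnd library, since only Tbx3 remained marked, and every difference in presence was 0. Leaving out 1 library at a time, the mean number of members marked ranged from 1.33 to 1.67 in Oct4+ nEnd, from 3.5 to 4 in DP nEnd and from 1.5 to 3.5 in Pdgfra+ nEnd. Members marked in every DP and no Oct4+ nEnd library ranged from 1 to 2, those in every DP and no Pdgfra+ nEnd library from 0 to 1 and those in every Pdgfra+ and no Oct4+ nEnd library from 0 to 1. The shares of all genes in these classes were not computed with a library left out. The difference in Tbx3 width between Oct4+ and DP nEnd, 450 bp over all libraries, was −2066 bp without Oct4+ nEnd replicate 4, −462 bp without DP nEnd replicate 3 and at most 2040 bp with another library left out. With summed widths it was 4256 bp, and 8402 bp against Pdgfra+ nEnd in place of 4597 bp. By highest coverage the difference in Tbx3 percentile was 9.79 instead of −1.23, and 29.9 instead of 16.6 against Pdgfra+ nEnd. In none of these did a value pass its test, and the cause was not tested. With 1 library left out none could pass. The smallest p was then 0.0667 or 0.10, by Fisher's exact test as by the exact permutation test.

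Replicate numbers were not taken to pair the libraries: deviations of same-numbered Oct4+ and DP nEnd libraries correlated at 0.0567, −0.144 and −0.139, those of Oct4+ and Pdgfra+ nEnd at −0.289, 0.206 and −0.254 and those of DP and Pdgfra+ nEnd at −0.0920, −0.230 and 0.135, so not every pair was above 0.1. With a replicate block over numbers 1 to 3 the difference in Tbx3 width between Oct4+ and DP nEnd was −2066 bp (exact sign-flip permutation test, p = 0.25). That p is the smallest that 3 pairs of libraries allow, so no value could pass. No other direction changed. Depth is unknown, so a promoter without a peak may be below detection. For the length of Tbx3 in peaks, the differences with 1 library left out ranged from 3958 to 5596 bp against DP nEnd and from 6447 to 7729 bp against Pdgfra+ nEnd.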
